A study of Homo sapiens with 12 samples.

Results

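Collagen chain genes encode the protein chains that wind into the triple helices of the extracellular matrix. The genes described here were chosen by their symbol (COL, a number, A, a number) and selected on being listed, that is, on having an m6A peak called by the authors in at least 1 of 2 peak lists or in a table of differential m6A peaks. This gave 29 genes of the 18330 gene names in the files, and 29 of the 44 collagen chain symbols of the RefSeq gene table. They held 129 of the 68383 listed peaks, 60 in the FTO knockdown list and 69 in the control list, and 27 of the 8687 differential peaks used. The weakest of the listed peaks was a control peak of COL28A1 with a log10 p of -1.32, and the differential peak with the largest p lay on COL6A3 (p = 0.0468 in the authors' deposited table). Values for peaks beyond those thresholds were not analysed here. FPKM values of RNA were listed for genes with a differential peak, which 14 of the 29 had.

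The study used HGC27, an established human gastric carcinoma cell line. In the treated cells FTO, the enzyme that removes the methyl group of N6-methyladenosine (m6A) from RNA, was lowered by short hairpin RNA (labelled sh1, sh2 and sh3, genotype label FTO-KO). The other cells were negative controls (labelled Con1, Con2 and Con3, genotype label WT). Each condition had 3 libraries of RNA fragments bound by an m6A antibody (IP) and 3 libraries of fragments before binding (input), 12 libraries in all. The labels do not say whether the 3 libraries of a condition came from separate cultures or different hairpins, so each p-value speaks to the scatter among these libraries alone, and that scatter may be technical. In bulk RNA, fewer cells with a transcript and less of it per cell cannot be told apart.

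Collagen chains share long stretches in which glycine is repeated at regular steps, and chains of matching types assemble in the endoplasmic reticulum before secretion. Fibrillar collagens (types I, II, III, V, XI and XXVII) build fibrils, collagen IV builds the network of basement membranes, collagen VI builds beaded microfibrils around cells, and collagens IX, XII and XIV bind to fibril surfaces. In gastric carcinoma, much of the matrix collagen is made by fibroblasts, while cell lines of mesenchymal character can also express collagen chains. m6A is placed on messenger RNA by a methyltransferase complex and is common near stop codons, in 3' UTRs and in long exons. Antibodies to m6A also bind the related mark m6Am next to the RNA cap.

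FTO RNA checked the labels: it stood at 0.786, 0.83 and 0.765 FPKM in the knockdown libraries and at 5.48, 5.68 and 5.52 FPKM in the control libraries. FPKM over all 6396 genes with values summed to between 83712 and 86902 in the knockdown libraries and between 74289 and 78461 in the control libraries, and sequencing depth was unknown. Input libraries correlated at 0.9877 to 0.9923 within a condition and 0.9583 to 0.9689 between conditions (Pearson, log2 scale). Few markers of cell identity had values, namely 2 of 8 fibroblast markers (THY1 and PDPN), 2 of 7 epithelial markers (MUC1 and CLDN4) and none of the gastric, mesenchymal, immune or endothelial markers looked up, so the cell type could not be checked from them. The 2 fibroblast markers summed to 15.4 to 16.4 FPKM in the knockdown and 13.9 to 14.8 FPKM in the control libraries. PDPN was lower and THY1 higher in the knockdown (limma with Benjamini-Hochberg adjustment, adjusted p = 9.95e-05 and 0.00318). The part of other cell types in the collagen results was not tested.

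RNA of most collagen chain genes with values was lower after FTO knockdown. Of 14 genes with FPKM, 13 averaged 1 FPKM or more across the 6 inputs and were tested, and 9 were called lower and 1 higher (limma, adjusted p under 0.05 over all 4515 genes tested). Of all tested genes, 37.9% were called lower and 24.5% higher. The median log2 change was -0.41 for the 13 collagen genes and -0.07 for all tested genes. Log2 changes of RNA are of FPKM + 1, while folds are ratios of mean FPKM, so they differ for genes of low FPKM. Knockdown and control values did not overlap in 10 of the 13 genes, beside 67.8% of all tested genes. After quantile normalization 9 collagen genes were lower and 1 higher, while all genes split into 1425 higher and 1291 lower. After median-centring 8 were lower and 1 higher, and all genes split into 1507 higher and 1213 lower, against 1107 higher and 1712 lower as deposited. With the q-values for expression in the authors' deposited table, 12 of the 13 genes fell on the same side of 0.05, the exception being COL1A1.

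**Figure D1:**
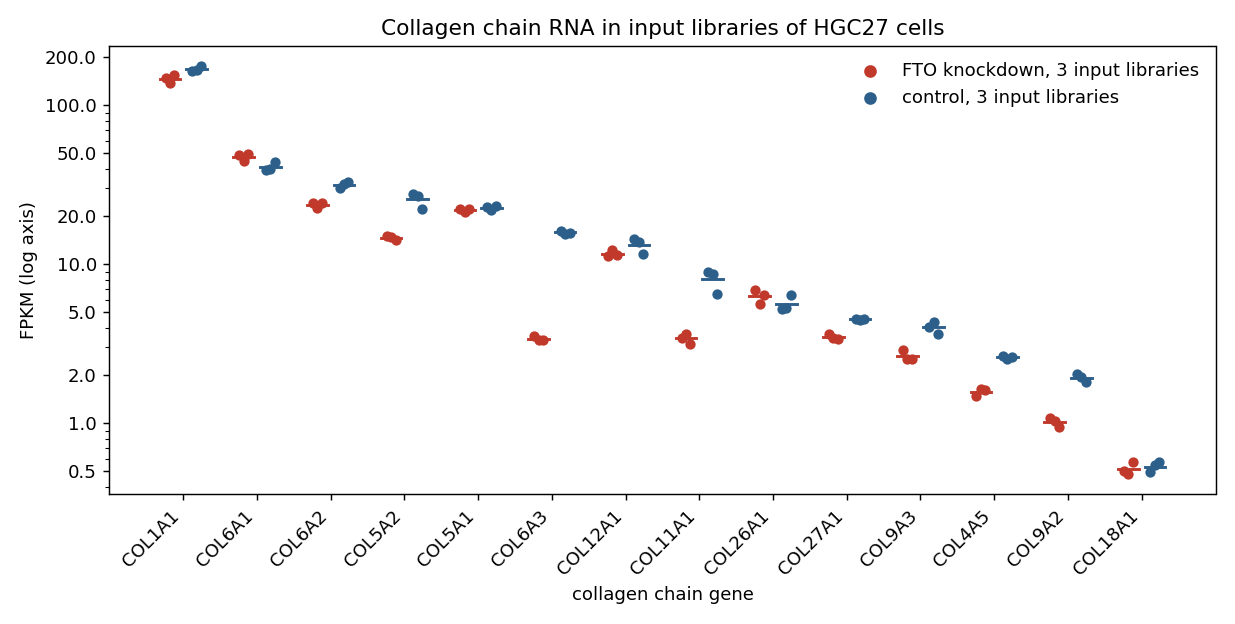
FPKM of the 14 collagen chain genes in each input library, on a log axis, with genes ordered by their control mean; points are libraries and short lines are means of 3. COL6A3 shows the widest gap, 3.41 against 15.9 FPKM, and COL1A1 the highest levels in both conditions.

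Collagen VI showed both directions within one assembly. COL6A3, whose product is the long chain of the collagen VI heterotrimer, stood at 3.55, 3.36 and 3.32 FPKM in the knockdown libraries and at 16.2, 15.6 and 15.8 FPKM in the control libraries. This 4.65-fold lower level was the largest change among the tested collagen genes (log2 change -1.94, SE 0.0415, limma adjusted p = 3.1e-07). COL6A2 was at 24.3, 22.5 and 24.2 FPKM in the knockdown and 30.4, 31.8 and 33.1 FPKM in the control libraries. It was 1.34-fold lower, with no overlap between groups (log2 change -0.41, SE 0.0482, limma adjusted p = 0.000237). COL6A1, the partner chain of both, was at 48.4, 44.7 and 49.2 FPKM in the knockdown and 39.1, 39.9 and 43.8 FPKM in the control libraries. It was the one collagen gene called higher, by 1.16-fold (log2 change 0.21, SE 0.0569, limma adjusted p = 0.0136). That call was lost without control replicate 1 (limma adjusted p = 0.0514) and without knockdown replicate 3 (limma adjusted p = 0.054), with the direction kept in both.

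Among the fibrillar chains with values, COL1A1, COL5A2, COL11A1 and COL27A1 were called lower, and COL5A1 was not. COL1A1, which encodes the major chain of collagen I, was the highest of the 14 genes and made up 50.2% to 51.9% of their summed FPKM in the knockdown and 48.1% to 50% in the control libraries. COL1A1 had 148.7, 138.5 and 154.5 FPKM in the knockdown and 165.1, 166.5 and 175.7 FPKM in the control libraries, 1.15-fold lower (log2 change -0.20, SE 0.0521, limma adjusted p = 0.0108). The call was lost after median-centring (limma adjusted p = 0.147), and the authors' deposited table gave COL1A1 a q of 0.684. COL5A2, a chain of collagen V, a regulator of fibril diameter, was at 15.1, 14.9 and 14.2 FPKM in the knockdown and 27.7, 26.7 and 22.4 FPKM in the control libraries. It fell 1.74-fold (log2 change -0.75, SE 0.076, limma adjusted p = 0.000111). Its partner COL5A1 stood at 22.3, 21.2 and 22.2 FPKM in the knockdown and 23.0, 21.9 and 23.2 FPKM in the control libraries, values that overlapped (log2 change -0.05, SE 0.0414, limma adjusted p = 0.346). COL11A1, a fibrillar chain that can assemble with collagen V chains, was at 3.42, 3.66 and 3.17 FPKM in the knockdown and 8.90, 8.68 and 6.51 FPKM in the control libraries. The groups did not overlap, and COL11A1 was 2.35-fold lower (log2 change -1.02, SE 0.104, limma adjusted p = 0.000115). COL27A1, a fibrillar chain described in cartilage, fell to 3.62, 3.43 and 3.39 FPKM in the knockdown libraries, against 4.53, 4.47 and 4.55 FPKM in the control libraries (limma adjusted p = 0.000652).

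Both listed chains of collagen IX, which decorates fibrils in cartilage, were lower. COL9A2 averaged 1.02 ± 0.0721 FPKM in the knockdown and 1.94 ± 0.117 FPKM in the control libraries, and COL9A3 averaged 2.66 ± 0.214 and 4.01 ± 0.351 FPKM in the knockdown and control libraries (SD, n = 3 each). Their log2 changes were -0.54 and -0.45 (limma adjusted p = 0.00015 and 0.00081). COL4A5, a basement membrane chain, averaged 1.58 ± 0.077 FPKM in the knockdown and 2.59 ± 0.0674 FPKM in the control libraries (SD, n = 3 each), a log2 change of -0.48 (SE 0.0502, limma adjusted p = 0.000132). COL12A1, a fibril-associated chain, averaged 11.7 ± 0.587 FPKM in the knockdown and 13.3 ± 1.47 FPKM in the control libraries, and COL26A1 averaged 6.34 ± 0.654 and 5.65 ± 0.632 FPKM in the knockdown and control libraries (SD, n = 3 each). Neither passed the test (limma adjusted p = 0.0879 and 0.183), and values overlapped in both. Without control replicate 3, COL12A1 passed as lower (limma adjusted p = 0.00281) and COL26A1 as higher (limma adjusted p = 0.0331). COL18A1, whose C-terminal fragment is the angiogenesis inhibitor endostatin, averaged 0.519 ± 0.0466 FPKM in the knockdown and 0.535 ± 0.0401 FPKM in the control libraries (SD, n = 3 each), too low to be tested. The order of mean levels began with COL1A1, COL6A1 and COL6A2 in both conditions. COL6A3 ranked 10 of 14 in the knockdown and 6 of 14 in the control libraries. COL27A1, COL11A1 and COL6A3, next to each other in the knockdown order, did not differ there beyond their spread.

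**Figure D2:**
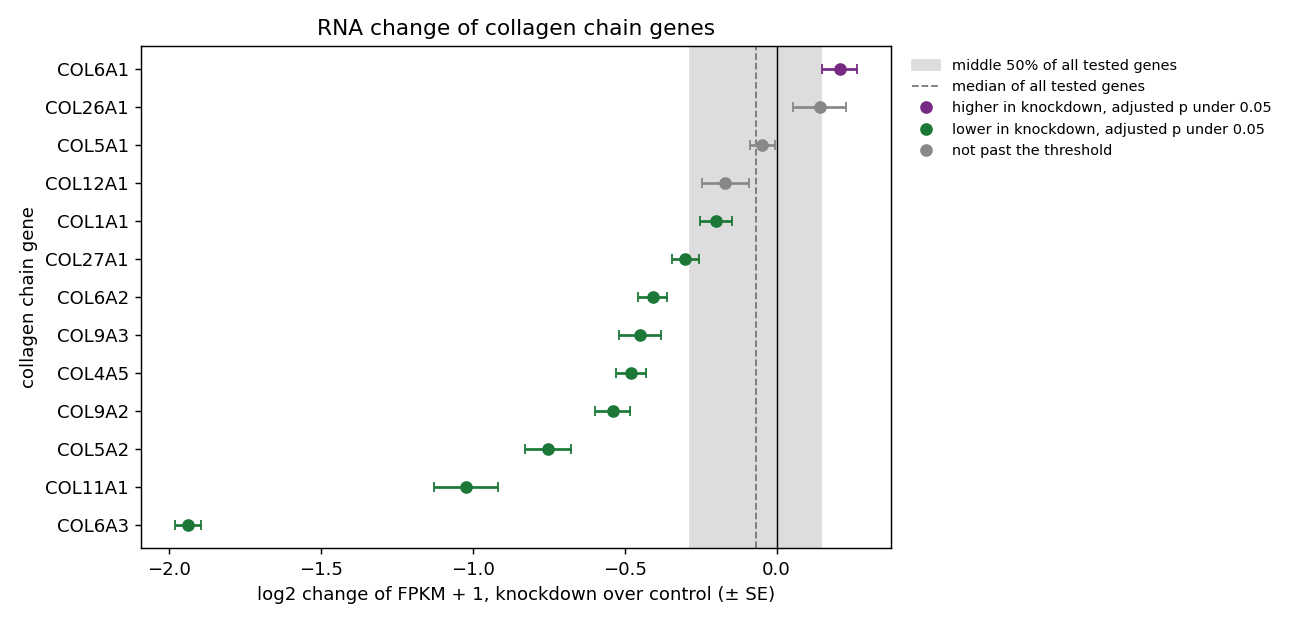
log2 change of FPKM + 1, knockdown over control, for the 13 tested collagen chain genes, with standard errors; the grey band spans the middle 50% of all 4515 tested genes and the dashed line is their median of -0.07. COL6A3, COL11A1 and COL5A2 lie farthest to the left, and COL6A1 is the one gene called higher. With 0.1 added to FPKM in place of 1, COL9A2 (-0.862) lay farther left than COL5A2 (-0.788).

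Ratios between partner chains, taken within each library, do not depend on scaling between libraries. COL6A3 over COL6A1 was 0.0733, 0.0752 and 0.0675 in the knockdown libraries and 0.414, 0.39 and 0.361 in the control libraries. COL6A2 over COL6A1 was 0.502, 0.505 and 0.492 in the knockdown and 0.777, 0.795 and 0.756 in the control libraries. For collagen V, COL5A2 over COL5A1 was 0.676, 0.704 and 0.637 in the knockdown and 1.21, 1.22 and 0.964 in the control libraries. COL9A2 over COL9A3 was 0.372, 0.405 and 0.373 in the knockdown and 0.507, 0.449 and 0.499 in the control libraries. All 4 ratios were lower in every knockdown library than in any control library. Each gave p = 0.1 in a two-sided exact permutation test, the smallest p that 3 against 3 libraries allow, so none can pass 0.05.

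**Figure D3:**
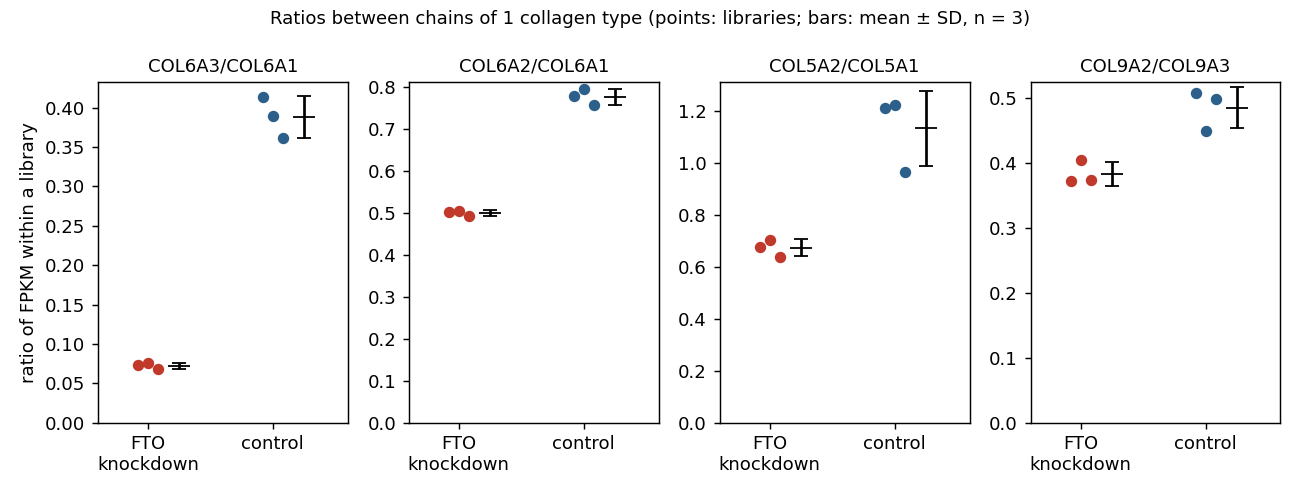
Ratio of FPKM between chains of the same collagen type in each input library (points), with mean ± SD of 3 libraries beside them; every axis starts at 0. The groups are apart in all 4 panels, with COL6A3/COL6A1 at 0.072 in the knockdown and 0.389 in the control.

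Genes that act on collagen, or were listed for secretion, were looked up as 5 lists of 98 symbols, of which 23 had FPKM and 20 were tested. Among these, 12 were called lower and 4 higher, beside the shares of all genes given above. Of 6 tested modifying enzymes and chaperones, 4 were lower and none higher, with 1 lower after median-centring and 2 without knockdown replicate 1 or 2. PLOD1, a lysyl hydroxylase, averaged 15.6 ± 0.221 FPKM in the knockdown and 21.3 ± 1.2 FPKM in the control libraries, and P3H1, a prolyl 3-hydroxylase, averaged 12.2 ± 0.523 and 14.3 ± 0.722 FPKM in the knockdown and control libraries (SD, n = 3 each; limma adjusted p = 0.000164 and 0.00676). P4HB, a subunit of prolyl 4-hydroxylase, was lower at 87.7 ± 4.46 FPKM in the knockdown against 99.4 ± 4.38 FPKM in the control libraries (SD, n = 3 each; limma adjusted p = 0.0173). Of 4 tested genes of propeptide processing and cross-linking, 3 were lower and 1 higher. LOX, which oxidises lysines for cross-links, averaged 8.98 ± 0.414 FPKM in the knockdown and 18.1 ± 1.0 FPKM in the control libraries (SD, n = 3 each; limma adjusted p = 1.28e-05). The propeptidase genes moved apart. ADAMTS3, which removes N-propeptides, had a log2 change of -0.61, and BMP1, which removes C-propeptides, one of 0.45 (limma adjusted p = 8.44e-05 and 0.000186).

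The collagen receptor genes DDR1 and DDR2, both receptor tyrosine kinases, also moved apart. DDR1 averaged 6.01 ± 0.17 FPKM in the knockdown and 3.86 ± 0.0984 FPKM in the control libraries, and DDR2 averaged 32.7 ± 1.04 and 39.9 ± 3.66 FPKM in the knockdown and control libraries (SD, n = 3 each; limma adjusted p = 4.81e-05 and 0.00736). All 3 tested genes of collagen degradation were lower, among them the membrane-bound proteases MMP14 (log2 change -0.31, limma adjusted p = 0.00036) and MMP16 (log2 change -0.45, limma adjusted p = 0.00446). Of 5 tested secretion genes, SEC24A, a coat protein of vesicles leaving the endoplasmic reticulum, was lower (limma adjusted p = 0.000503). The vesicle coat GTPase gene SAR1B and TANGO2 were higher (limma adjusted p = 0.0123 and 0.0298). Whether TANGO2 takes part in collagen secretion was not tested. With each library but control replicate 3 left out in turn, or with the replicate number as a block, 1 secretion gene was higher. Medians of the lists were -0.16 for modifying enzymes, 0.01 for secretion, -0.39 for processing and cross-linking, 0.13 for receptors and -0.34 for degradation.

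Of the 29 genes, 21 had m6A peaks in both conditions. Another 8 had peaks in the control list and not in the knockdown list, and 0 the other way round. The control list alone held 27.6% of the collagen genes, beside 25.1% of the 18274 genes with a peak in either list. There is 1 list per condition, and how replicates were combined is not given in the sources used here, so numbers of peaks were not tested. Fold enrichment of IP over input is the authors' own value, used to describe peaks within a list. Its median over collagen peaks was 4.67 in the knockdown list and 5.25 in the control list, beside 7.05 and 6.11 over all peaks of the knockdown and control lists. Of the collagen peaks in the knockdown list 85% (95% exact binomial interval 73.4% to 92.9%) overlapped a control peak by at least 1 bp, beside 88.8% of all knockdown peaks. In the control list, 69.6% (57.3% to 80.1%) overlapped a knockdown peak, beside 57.9% of all control peaks. The intervals cover counting error only.

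By the deposited labels, 3' UTRs held 46.7% (33.7% to 60.0%) of collagen peaks in the knockdown list and 44.9% (32.9% to 57.4%) in the control list. 5' UTRs held 11.7% (4.82% to 22.6%) in the knockdown list and 15.9% (8.24% to 26.7%) in the control list. Over all genes the 3' UTR shares were 46.5% and 47.6% in the knockdown and control lists, within those intervals. The labels follow the transcript that the authors assigned to each peak. That transcript was of the retained-intron type for 38.3% of collagen peaks in the knockdown and 44.9% in the control list, beside 17.5% and 17.0% of all knockdown and control peaks. So a region label can differ from the place of a peak in the full-length coding transcript.

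The genes with the most peaks were COL6A3, with 9 in the knockdown list and 11 in the control list, and COL27A1, with 7 in the knockdown and 5 in the control list. On COL6A3 the peak of highest enrichment lay in both lists on chromosome 2 from 237340616 to 237342130, in exon 36 of 43, with 30-fold enrichment in the knockdown and 14.5-fold in the control list. COL8A2, a chain of the hexagonal network below endothelia, had 4 peaks in each list and no differential peak. Its highest peak was 29.7-fold in the knockdown list (3' UTR, chromosome 1 from 36096765 to 36097453) and 58.8-fold in the control list (last exon, 36098501 to 36098920). These COL8A2 maxima lay at different places. The control peak overlapping the 3' UTR maximum was 16.9-fold, and the knockdown peak overlapping the last-exon maximum was 13.7-fold. COL13A1, a transmembrane collagen, had a 5' UTR peak of 15.1-fold in the knockdown and 32.5-fold in the control list, and no differential peak. COL1A1 carried its signal at the end of the transcript, as 2 peaks of 4.93-fold and 4.38-fold in the knockdown list and 1 peak of 6.46-fold in the control list, all in the 3' UTR on chromosome 17 between 50184400 and 50185507. COL6A2 had its highest peak in the 3' UTR, 10.8-fold in the knockdown and 6.73-fold in the control list. For COL6A1 the highest values were 9.74-fold in the knockdown list and 10.7-fold in the control list, at different exons, the latter with a log10 p of -2.82. COL12A1 reached 9.77-fold in the knockdown and 10.7-fold in the control list, and COL18A1 reached 9.99-fold in the knockdown and 8.02-fold in the control list. The COL18A1 values came from different places, the 3' UTR in the knockdown and exon 1 in the control list. In the 3' UTR the COL18A1 peaks of the control list reached 7.05-fold. Peaks that lie on exon 3 of the COL18A1 model but are named for MIR6815 had 9.97-fold enrichment in the knockdown and 11.8-fold in the control list, so with them the control list has the higher maximum. COL27A1 (6.47-fold in the knockdown, 5.25-fold in the control list), COL5A2 (5.02-fold and 6.17-fold in the knockdown and control lists) and COL26A1 (3.84-fold and 3.29-fold in the knockdown and control lists) had lower maxima. The COL5A2 maxima lay in the 3' UTR in the knockdown and the 5' UTR in the control list. The COL26A1 maxima lay at different 3' UTR peaks. Where the knockdown had its maximum, the overlapping control peak was 4.81-fold for COL5A2 and 2.61-fold for COL26A1. COL4A5 reached 3.05-fold in the control list and had no knockdown peak. COL5A3 and COL16A1 were in both lists, as were COL2A1, COL11A2, COL14A1 and COL15A1, all without a differential peak.

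The 8 genes of the control list alone were COL1A2, COL3A1, COL4A5, COL4A6, COL7A1, COL20A1, COL21A1 and COL28A1. They had 9 peaks, and 7 of these had a log10 p above -5. COL7A1, which encodes the anchoring fibril collagen of skin, COL20A1 and COL21A1 each had 6.87-fold enrichment with a log10 p of -1.53. Their log10 adjusted p was -0.625, -0.625 and -0.793, and that of the COL28A1 peak was -0.436. None of these peaks passed an adjusted p of 0.05, so a loss of m6A in the knockdown cannot be read from them. Peaks of COL1A2, COL3A1, COL4A5 and COL4A6 passed it (log10 adjusted p of -1.98, -150, -12.5 and -1.73). The other COL4A5 peak did not (-0.932). COL3A1, a fibrillar chain, had the strongest p among the 8 genes (log10 p of -151) at 1.42-fold enrichment. Over all collagen peaks, 11.7% in the knockdown list and 33.3% in the control list had a log10 p above -5, beside 15.9% and 35.0% of all knockdown and control peaks. A peak named for COL9A3 (43.3-fold in the knockdown, 19.5-fold in the control list) lay on the model of its neighbour OGFR, and the control peak named for COL15A1 lay on the model of another gene. The highest peaks on the COL9A3 model were 4.15-fold in the knockdown and 6.11-fold in the control list.

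At the start of COL5A1, the 5' UTR peak began at the RefSeq start site in both lists (chromosome 9, 134641803). It had 39.6-fold enrichment (log10 p of -21.7) in the knockdown and 6.87-fold (log10 p of -5.3) in the control list, without a differential peak. The same 6.87-fold was listed at the weak control peaks of COL7A1, COL20A1 and COL21A1. The stretch below is shown because it was the one place where a peak covered the first 50 transcribed bases of a collagen gene with GGAC, the core of the usual m6A sequence context, in capitals. It is RefSeq sequence of GRCh38.p14, plus strand, chr9:134641821-134641850.
COL5A1 start: cgcggctggcgcaGGACctcactcgagcgg
GGAC was searched on the transcript strand, where 18.8% of 27305 genes with a start window hold it in the first 50 bases, and so do 4 of the 20 collagen genes with a window. A match is a description and does not show that this adenosine is methylated.

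Some collagen peaks ran over several short exons. In the knockdown list 18.3% of collagen peaks covered at least 3 exon blocks, beside 6.63% of all peaks, and in the control list 10.1%, a share close to the 9.64% of all control peaks. Blocks between the first and the last of such a peak have a gap on both sides and were read as whole exons. Of 29 inner blocks of collagen peaks in the knockdown list, 23 had a length that is a multiple of 9 bp, and of 24 in the control list 20 did. The shares were 79.3% (95% exact binomial interval 60.3% to 92.0%) and 83.3% (62.6% to 95.3%), beside 12.1% and 12.2% of inner blocks in other genes of the knockdown and control lists. Exons for the triple helix are known to hold whole Gly-X-Y codon triplets, most typically 54 bp, a length found in 5 blocks of each list. A peak of COL6A1 alone gave 13 of these blocks in the knockdown and 12 in the control list, all multiples of 9 between 27 and 63 bp. It ran in the knockdown list from 45987473 to 45997451 on chromosome 21 with 9.74-fold enrichment, and in the control list from 45987653 to 45997422 with 4.26-fold enrichment. Without COL6A1, 10 of 16 blocks in the knockdown and 8 of 12 in the control list were multiples of 9. The 8 include blocks of 585 bp in COL6A3 and 603 bp in COL12A1, far longer than the typical 54 bp. A length that is a multiple of 9 does not by itself show an exon for the triple helix. Peaks of both lists share exons, so the lists are not separate samples of them.

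**Figure D4:**
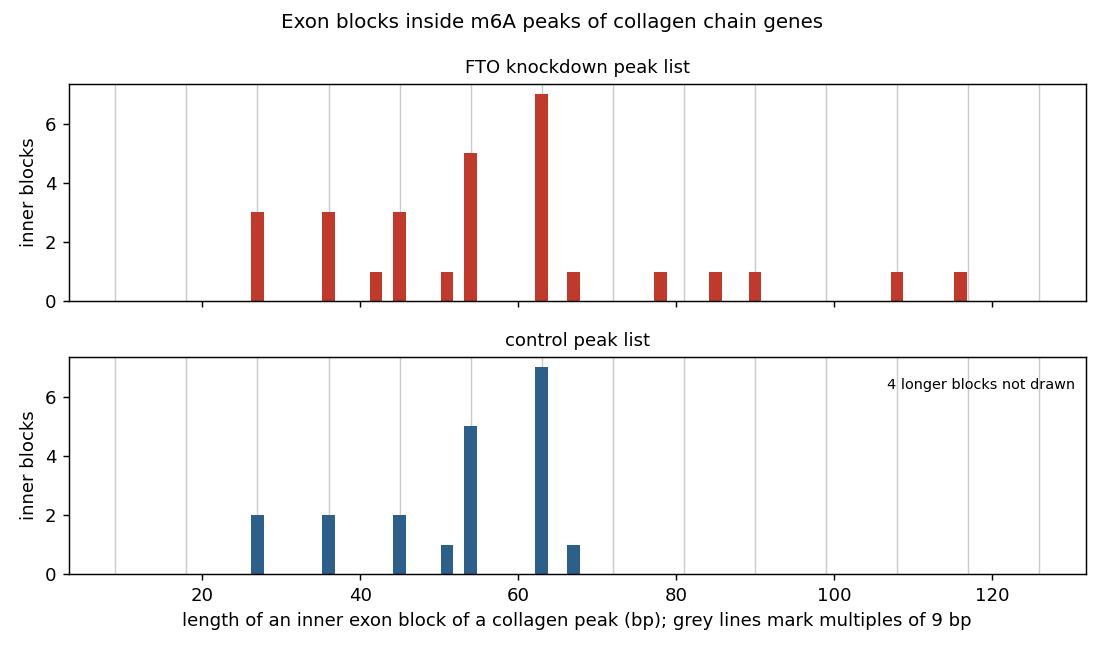
Number of inner exon blocks of each length inside m6A peaks of collagen chain genes, with the FTO knockdown list above the control list; grey lines mark multiples of 9 bp, and 4 control blocks longer than drawn are left out. Most bars stand on a grey line, with 63 bp and 54 bp the most frequent lengths.

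The 14 genes with differential peaks were chosen by those peaks, so their m6A changes are given as a description with no test. Of the 27 peaks in the authors' deposited table, 17 were higher in the knockdown and 10 lower, and of all 8687 peaks used 55.4% were higher in the knockdown. In 6 genes all differential peaks were lower in the knockdown, in 5 all were higher, and in 3 genes (COL5A1, COL6A2 and COL6A3) both directions occurred. At an adjusted p under 0.05, 24 peaks on 13 genes remained, 16 higher and 8 lower, beside 57.2% higher over all genes. Left out there were the COL5A2 peak, the COL6A3 5' UTR peak and the COL9A3 peak on its own model. So COL5A2 then has no differential peak, COL6A3 has higher ones alone, and COL9A3 keeps only the peak that lies on OGFR. By the deposited labels, 12 of 13 peaks in exons other than UTRs were higher, beside 4 of 9 in 3' UTRs and 1 of 5 in 5' UTRs. The 12 include the peak named for COL9A3 that lies on OGFR, and the COL9A3 first-exon peak. Most of the 13 came from COL5A1, COL6A2 and COL6A3, so they are not separate cases. No called peak of either list lay on the span of 4 of the 27, all listed as higher in the knockdown: exon 30 of COL5A1, the 5' UTR of COL6A1, exon 5 of COL6A2 and the first exon of COL9A3. Over all genes, 54.2% of peaks in exons other than UTRs, 53.4% of 3' UTR peaks and 65.5% of 5' UTR peaks in the deposited table were higher.

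**Figure D5:**
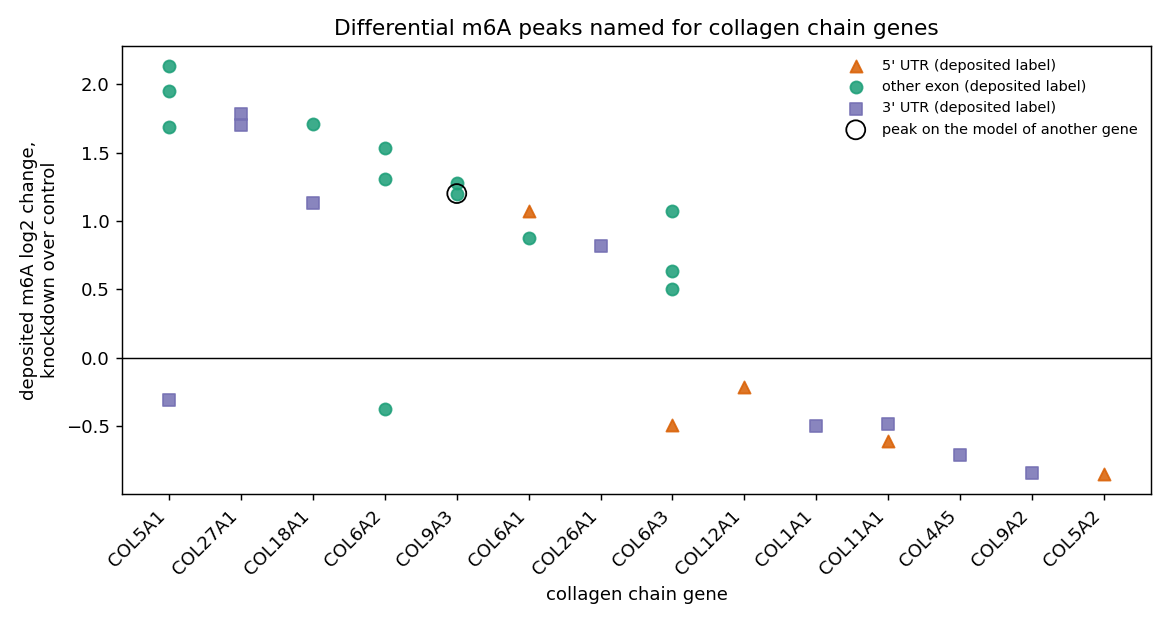
Deposited log2 change of m6A, knockdown over control, for each of the 27 differential peaks named for a collagen chain gene, with genes ordered by their median; the shape gives the deposited region label and a ring marks the peak that lies on OGFR. COL5A1, COL6A2 and COL6A3 have peaks on both sides of 0, with 1 peak each below it.

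In COL5A1, 3 exon peaks on chromosome 9 were higher in the knockdown in the authors' deposited table. The peak from 134785033 to 134789187 (exon 30 of 66) had a log2 change of 2.13, that from 134804989 to 134808992 (exon 40 of 66) one of 1.95, and that from 134708674 to 134709004 (exon 6 of 6, the last of its assigned model) one of 1.69. The COL5A1 peak in the 3' UTR, from 134843643 to 134844573, had a deposited log2 change of -0.31. COL5A1 RNA overlapped between groups, as given above.

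COL6A2 had deposited log2 changes of 1.53 in the peak from 46118631 to 46125288 of chromosome 21 (exon 13 of 28) and 1.31 in that from 46114055 to 46116807 (exon 5 of 28). Another COL6A2 peak, in exon 3, had a deposited log2 change of -0.37. In the authors' deposited table COL6A3 peaks in exons 36, 35 and 23 had log2 changes of 1.07, 0.63 and 0.50, and its 5' UTR peak one of -0.49. That 5' UTR peak missed an adjusted p of 0.05 (deposited log10 adjusted p of -0.963). The exon 35 peak had 5.4-fold enrichment in the knockdown and 3.15-fold in the control list. COL6A1 had 2 differential peaks, with deposited log2 changes of 1.07 in the 5' UTR and 0.88 in the last exon (exon 34 of 34). So the differential exon peaks of collagen VI chains, apart from exon 3 of COL6A2, were listed as higher in the knockdown. Other exon peaks of these genes had no differential row. The RNA of COL6A2 and COL6A3 was lower and that of COL6A1 higher.

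Lower m6A was listed for 6 genes without a rise at any differential peak. The authors' deposited table gave COL5A2 a log2 change of -0.85 in the 5' UTR, COL9A2 one of -0.84 and COL4A5 one of -0.71, with the COL9A2 and COL4A5 peaks in 3' UTRs. COL11A1 had deposited changes of -0.61 in the 5' UTR and -0.49 in the 3' UTR, COL1A1 had -0.50 in the 3' UTR, and COL12A1 had -0.22 in a 5' UTR. At the COL9A2 peak the enrichment was 2.4-fold in the knockdown and 14.5-fold in the control list, and at the COL11A1 5' UTR peak it was 9.78-fold in the knockdown and 21.4-fold in the control list. RNA was called lower in 5 of these 6 genes, and COL12A1 did not pass the test. This stands beside 9 of all 13 tested collagen genes and 37.9% of all tested genes called lower. The RNA and m6A comparisons share the input libraries, so the values are set side by side and no relation was tested.

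Only higher m6A was listed for 5 genes. Both COL27A1 peaks, labelled 3' UTR on a processed transcript, had deposited log2 changes of 1.78 and 1.70. COL18A1 had deposited changes of 1.71 in exon 40 of 42 and 1.13 in the 3' UTR, and COL26A1 had 0.82 in the 3' UTR. COL9A3 had 1.28 in the deposited table at the first exon of its own model and 1.20 at the peak that lies on OGFR. For COL6A1 the values stand above. Of these genes RNA was called lower for COL27A1 and COL9A3 and higher for COL6A1.

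Promoter windows of RefSeq (GRCh38.p14) were at hand for 20 of the 29 genes and for 10 of the 14 with RNA values. The motifs below were searched on both strands in the 250 bases before the start site, each motif counted independently of the others. GGGCGG, a box bound by Sp1-type factors, was in 13 of the 20 windows, beside 42.3% of all 27305 windows. CCAAT, known from collagen I promoters, was in 5 of the 20, beside 33.0%, and TATAAA was in 3 of the 20, beside 11.1%. The windows below are those of 3 genes whose RNA was lower, shown because these genes changed in the same direction, and chosen after their values were seen. Capitals mark motif matches.
COL6A3, minus strand, chr2:237414165-237414414: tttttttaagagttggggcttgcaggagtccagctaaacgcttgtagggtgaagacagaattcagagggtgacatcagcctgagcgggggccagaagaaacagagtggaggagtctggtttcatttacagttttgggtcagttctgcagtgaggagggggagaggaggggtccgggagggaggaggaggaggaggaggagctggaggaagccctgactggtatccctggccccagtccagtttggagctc
COL11A1, minus strand, chr1:103108523-103108772: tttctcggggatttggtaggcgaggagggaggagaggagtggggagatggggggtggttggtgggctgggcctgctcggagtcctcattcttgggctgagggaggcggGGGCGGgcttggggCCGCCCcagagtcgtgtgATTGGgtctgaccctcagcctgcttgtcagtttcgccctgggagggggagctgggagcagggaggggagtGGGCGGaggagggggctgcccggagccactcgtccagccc
COL4A5, plus strand, chrX:108439588-108439837: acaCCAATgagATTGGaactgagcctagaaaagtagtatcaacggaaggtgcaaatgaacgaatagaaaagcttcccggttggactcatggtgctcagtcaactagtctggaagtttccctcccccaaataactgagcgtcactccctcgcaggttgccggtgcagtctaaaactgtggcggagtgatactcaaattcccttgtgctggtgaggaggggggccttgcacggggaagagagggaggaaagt
The COL11A1 window held 3 GGGCGG and 1 CCAAT in either orientation, the COL4A5 window held 2 CCAAT, and the COL6A3 window held none of these letters. The start of COL4A5 faced that of COL4A6, whose window held 3 CCAAT and whose RNA had no value here. These windows overlap, and both COL4A5 matches lie in the shared bases. The same sites were thus counted for both genes, also among the 5 of 20 windows with CCAAT.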

How the data were processed

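Expression came as FPKM in each input library, made by the authors (per the file headers) with no other scaling stated. The authors' deposited table gives for each differential peak a log2 fold change of m6A, a score (the log10 of its adjusted p) and a p. Per the file headers, it also gives a log2 fold change and q-value (adjusted p-value) of expression. For every listed peak the authors give fold enrichment, an IP to input ratio, and log10 p scores. Bowtie 0.12.2, HISAT2 2.0, StringTie 1.3.0 and the mouse build mm8 appear, per the submitters' processing notes, with no roles. The peak caller is not given in the sources used here. Positions are human: 99.2% of 14724 genes matched by symbol overlapped their span in RefSeq GRCh38.p14, as did all 29 collagen genes. Starts in the files follow the BED convention and were raised by 1.

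Deposited log2 values were control over knockdown and were turned round. Recomputing showed this for expression (to within 1.46e-13), and at 11 of 11 collagen differential peaks with 1 peak per list the turned sign matched the enrichment values. Of 8970 differential rows, 283 with a p above 0.05 were left out.

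Genes averaging 1 FPKM or more were tested on log2(FPKM + 1), a scale that understates changes of low genes, with limma 3.58.1 in R 4.3.3 (empirical Bayes with trend, two-sided, no block). P-values were adjusted by Benjamini-Hochberg over 4515 genes, threshold 0.05. Whole-read steps could not be seen among low FPKM values (smallest above 0, 7.49e-07), which leaves depth unknown and count tests out. Simulated data for this comparison changed 55, 75 and 70 of 4515 genes by log2 values of 0.2, 0.5 and 1. Recovery was 29.1%, 85.3% and 100.0%, with 10 of 160 calls on unchanged genes. In the real data far more genes were called (1107 higher and 1712 lower), so these rates need not hold there. Overlaps used bedtools 2.31.1 on exonic blocks of at least 1 bp, strands not in conflict. Alternatives were other pseudocounts, filters, scalings, a fit without trend, a replicate block, left-out libraries, and stricter peaks or overlaps.

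Named were all listed collagen genes, FTO, and from each list of collagen-acting genes the called members of smallest p, up to 2 per direction, with P4HB and LOX. The collagen genes and lists were chosen with earlier results of these data known. No 2 input libraries were identical (highest correlation 0.9923).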

Additional observations from a re-analysis of the deposited data

How the results depend on the processing

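Over 14 alternatives, 178 values of the 13 tested collagen genes were recomputed, and 172 kept direction and side of the threshold, 3 lost the call, 2 gained one and 1 reversed. The reversal was COL5A1, at 0.045 after median-centring, which does not pass there either (limma adjusted p = 0.421). Leaving out each library gave 0 to 2 collagen genes higher and 9 to 10 lower. Fewer genes enter at a mean of at least 5 FPKM, where 5 of 9 collagen genes were lower and 1 higher. Of all genes at that filter 773 were lower and 830 higher, and of members of the 5 lists 10 were lower and 1 higher. Knockdown and control libraries of the same number did not deviate together (correlations of -0.0769, 0.0278 and 0.0247), so the numbers were not taken as pairs. With the replicate number as a block, 1 collagen gene was higher and 9 were lower, beside 1074 and 1673 of all genes and 3 and 12 of list members; it changed no call of a collagen gene. With 50% reciprocal overlap, 55.0% of knockdown and 47.8% of control collagen peaks were shared. At an enrichment of at least 4, 43 control peaks remained in number, and at a log10 adjusted p of -5 or lower 44, of which 81.8% overlapped. Keeping peaks on collagen models alone, chosen after seeing the data, left 59 knockdown and 67 control peaks and 16 differential peaks higher in the knockdown. Depth was unknown, and pooled peak lists allow no replicate error.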
